A study of Arabidopsis thaliana with 8 samples.

Results

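EIN3, ETP2 and ACO3 are 3 genes of the ethylene pathway of Arabidopsis thaliana, taken from its response, signalling and synthesis steps. They were chosen with earlier results of these data known. A probe set names each of them alone in the array annotation, 2 by symbol and ACO3 by its locus AT1G12010, as the rule for members requires. The rule found 1 probe set for each gene, so 3 of the 13513 probe sets that name 1 gene were members. The locus is AT3G20770 for EIN3 and AT3G18910 for ETP2. All 3 passed the filter on dim probe sets described below. Total RNA of whole 3-day-old etiolated seedlings, meaning seedlings germinated and kept in darkness, was measured on 8 single-colour arrays. All seedlings were wild type of the accession Col-0, a standard laboratory strain. The ethylene group (4 arrays) had 68 h of air followed by 4 h of ethylene at 10 ppm, and the air group (4 arrays) had 72 h of darkness with no ethylene. Each group comes from 2 experiments with 2 replicas in each, so arrays are written with the experiment before the replica, as in ethylene 1-1 or air 2-2.

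Ethylene is a gaseous plant hormone made from methionine through S-adenosylmethionine and ACC. ACC synthases make ACC, and ACC oxidases, of which ACO3 encodes one, turn it into ethylene. The gas binds receptors in the endoplasmic reticulum membrane, which relieves the membrane protein EIN2 of inhibition by the kinase CTR1. EIN2 then signals to the nucleus, where the transcription factor EIN3 starts the transcriptional response. The abundance of these proteins is known to be set largely by their breakdown. The F-box proteins ETP1 and ETP2, the substrate-recognising parts of ubiquitin ligases, target EIN2, and the F-box proteins EBF1 and EBF2 target EIN3. In dark-grown seedlings the pathway is known for the triple response, a shorter and thicker hypocotyl, a shorter root and a tighter apical hook. The arrays measure transcripts and give no protein level.

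Values are the authors' scaled intensities, which may flatten near saturation at the bright end and be mostly background at the dim end. Different probe sets bind with different strength, so levels are compared between arrays and not between genes. Median intensities per array lay between 833 and 980. Differences are on the scale of log2(intensity + 16), are always ethylene minus air, and were tested with limma over 15922 probe sets. A probe set was called at a Benjamini-Hochberg adjusted p under 0.05. The samples are whole seedlings, in which fewer cells of a type and less RNA per cell cannot be told apart. Of the tissue markers with a named probe set, the root hair genes EXPA7, EXPA18 and XTH26 summed to an intensity of 6039 to 8250.1 on the ethylene arrays and 3220 to 5526 on the air arrays, with no value at 0. Of these 3 genes, 2 were called higher in ethylene, where 1.56% of all tested probe sets were. All 3 were called higher with the experiment as a block, where 4.33% were. The marker lists were chosen with earlier results of these data known, so these calls are a description and no independent evidence. XTH26 was dim on the air arrays, at 14.7 to 209.1. The seed oil gene ICL and the photosystem gene PSAN were measured and not called. The part of any change in cell makeup in the results was not tested.

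None of the 3 genes passed the threshold in the comparison of all 8 arrays, in which 1.56% of tested probe sets were called higher in ethylene and 2.55% lower. ACO3 had the largest difference of the 3, with lower intensity in ethylene by 0.96 on the log2 scale. EIN3 and ETP2 differed by 0.16 and 0.04. With the experiment as a block, which removes the shift shared by both groups between experiments, ACO3 was called lower and the other 2 genes were again not called. That model called 4.33% of probe sets higher and 7.35% lower.

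**Figure D1:**
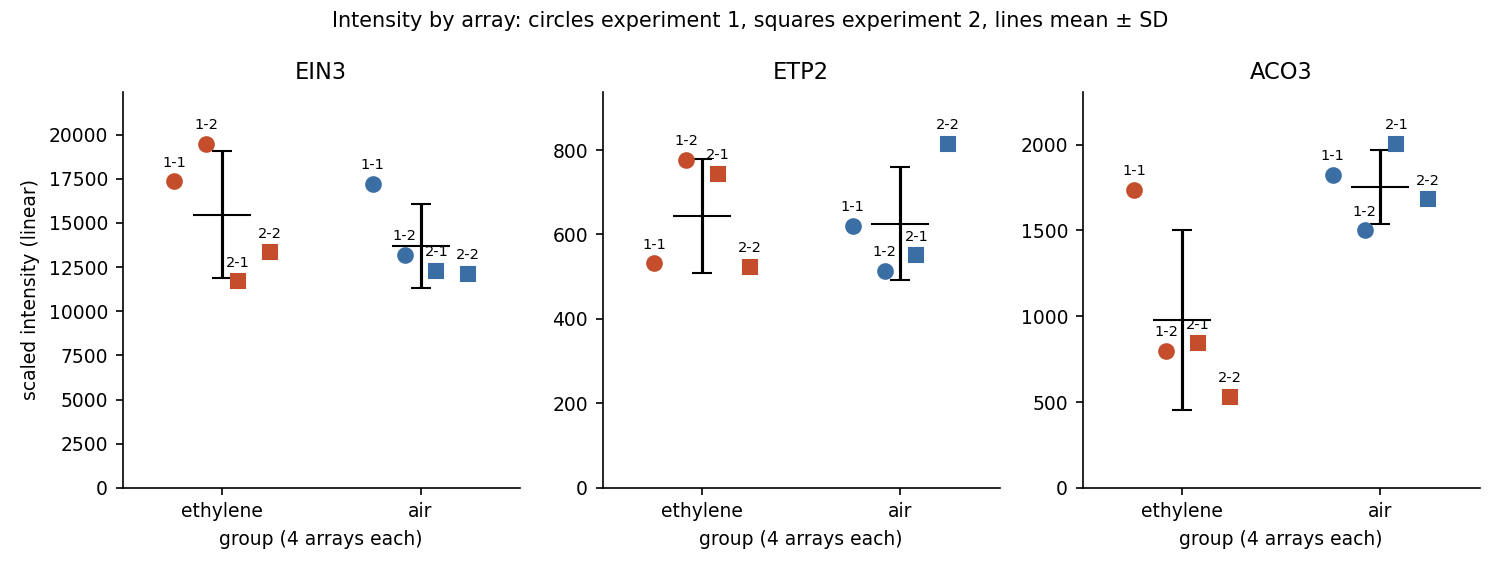
Scaled intensity (vertical axis, linear) of EIN3, ETP2 and ACO3 on each array, with ethylene left of air, circles for experiment 1, squares for experiment 2 and lines for the mean ± SD of 4 arrays. For ACO3, ethylene 1-1 at 1735 lies among the air arrays while the other 3 ethylene arrays lie below all of them.

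EIN3, the transcription factor, gave intensities of 17347, 19488, 11704 and 13344 on ethylene 1-1, 1-2, 2-1 and 2-2. On the air arrays in the same order it gave 17200, 13183, 12273 and 12127. The groups overlapped, and the lowest of the 8 values as well as the highest came from ethylene arrays. The means were 15471 ± 3576 in ethylene and 13696 ± 2383 in air (SD, n = 4 each). The log2 difference was 0.16 (SE 0.19, limma adjusted p = 0.826), with an unadjusted 95% interval of −0.26 to 0.59. With the experiment as a block the SE was 0.12, the interval −0.09 to 0.42 and the adjusted p 0.468, so EIN3 was not called there either. Leaving out 1 array, without a block, moved the difference to between 0.04 (without ethylene 1-2) and 0.29 (without ethylene 2-1), with no call. A larger absolute difference was found for 56.9% of all tested probe sets.

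The 8 EIN3 values fell into order by experiment more than by treatment. In experiment 2 the means were 12524 in ethylene and 12200 in air, and in experiment 1 they were 18417 in ethylene and 15191 in air. Averaged over both groups, EIN3 was lower in experiment 2 than in experiment 1 with a difference in log2 values of −0.43, an SE of 0.12 and a limma adjusted p of 0.0151. Such a call was common, with 12.4% of tested probe sets lower and 18.2% higher in experiment 2. Of the total sum of squares of its 8 log2 values, 66.1% lay between experiments, 9.30% between treatments and 18.9% between replicas. The median shares over all tested probe sets were 29.7%, 11.6% and 30.1%. The order of the 4 means was ethylene in experiment 1, air in experiment 1, ethylene in experiment 2 and air in experiment 2. The replicas of each neighbouring pair in this order overlapped in range or, for the first pair, did not differ in the test within experiment 1 (log2 difference 0.29, SE 0.17, limma adjusted p = 0.412). The difference within experiment 2 was 0.03 (SE 0.17, adjusted p = 0.952).

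ETP2, whose F-box protein is known to promote the breakdown of EIN2, had the smallest difference of the 3 members. Its intensities were 531, 777, 744 and 524 on ethylene 1-1, 1-2, 2-1 and 2-2. The air arrays gave 621, 514, 550.5 and 815. The groups covered nearly the same range, and the lowest and the highest value were both on air arrays. The means were 644 ± 135 in ethylene and 625 ± 134 in air (SD, n = 4 each). The log2 difference was 0.04 (SE 0.24, limma adjusted p = 0.977), with a 95% interval of −0.48 to 0.56. On a linear scale this interval runs from 0.716-fold to 1.48-fold, and in the blocked model the log2 interval was −0.45 to 0.54.

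The spread of ETP2 lay between replicas. The replicas of 1 experiment differed by 0.49 on the log2 scale in ethylene and 0.55 in air in experiment 2, and by 0.53 in ethylene and 0.26 in air in experiment 1. Of its sum of squares 87.9% was between replicas, 0.642% between treatments and 3.85% between experiments. The same-numbered pairs gave ethylene minus air differences of −0.22, 0.58, 0.42 and −0.62 for 1-1, 1-2, 2-1 and 2-2. Of the 4 pairs, 2 were therefore higher in ethylene and 2 lower, with 1 of each direction in each experiment. The 4 means by experiment and group ran from 683 in air in experiment 2, through 654 in ethylene in experiment 1 and 634 in ethylene in experiment 2, to 568 in air in experiment 1, and each neighbouring pair overlapped. ETP2 passed the filter that removed the dimmest 30% of probe sets but not one that removed 50%. The sign of its difference turned when ethylene 1-2, ethylene 2-1, air 1-2 or air 2-1 was left out, with values between −0.06 and 0.17 over all 8 such omissions.

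**Figure D2:**
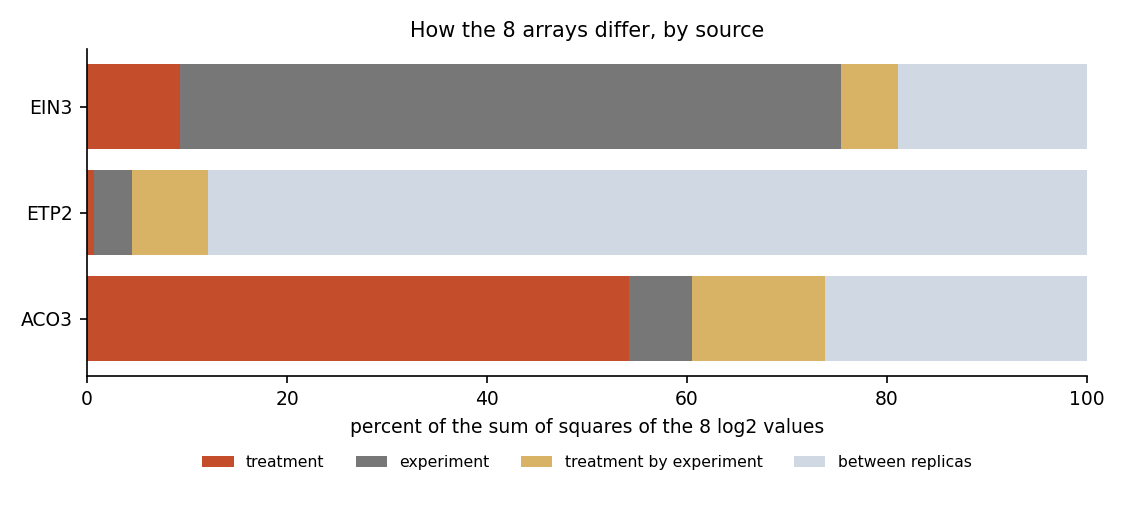
Percent of the sum of squares of the 8 log2 values (horizontal axis) of each gene that lay between treatments, between experiments, in their interaction and between replicas. The largest share was 66.1% between experiments for EIN3, 87.9% between replicas for ETP2 and 54.2% between treatments for ACO3.

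ACO3, which encodes an ACC oxidase of the last step of ethylene synthesis, had intensities of 1735, 798, 841 and 531 on ethylene 1-1, 1-2, 2-1 and 2-2. On the air arrays it had 1824, 1500.4, 2005 and 1681. Ethylene 1-1 lay inside the range of the air arrays, and the other 3 ethylene arrays lay below every air array. The means were 976 ± 524 in ethylene and 1753 ± 214 in air (SD, n = 4 each). The log2 difference was −0.96 (SE 0.31, 95% interval −1.64 to −0.28), or 0.514-fold, and the limma adjusted p was 0.136. Its unadjusted p of 0.00977 was undercut by 1140 of the 15922 tested probe sets, while 4.23% had a larger absolute difference. Of its sum of squares, 54.2% lay between treatments, 6.28% between experiments, 13.3% in their interaction and 26.2% between replicas.

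All 4 same-numbered pairs of ACO3 were lower in ethylene, with log2 differences of −0.07, −0.90, −1.24 and −1.63 for 1-1, 1-2, 2-1 and 2-2. The same held for 15.8% of all tested probe sets. With the experiment as a block the difference of −0.96 had an SE of 0.26 and a limma adjusted p of 0.0258, and ACO3 was called. With the 4 pairs as a block the adjusted p was 0.0155. These pairs match arrays by replica number alone, and that of ethylene 2-2 comes from its title, since its description is ambiguous. With the replicas of a group and experiment treated as correlated, at an estimated correlation of 0.458, the adjusted p was 0.483 and ACO3 was not called. That last fit did not link the ethylene arrays to the air arrays of the same experiment. A shift shared by both groups between experiments could therefore enter its correlation, while the fits with a block remove such a shift. It is thus no equal alternative to them. With all arrays kept, ACO3 was called with the experiment or the pairs as a block and not in the fits without either.

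**Figure D3:**
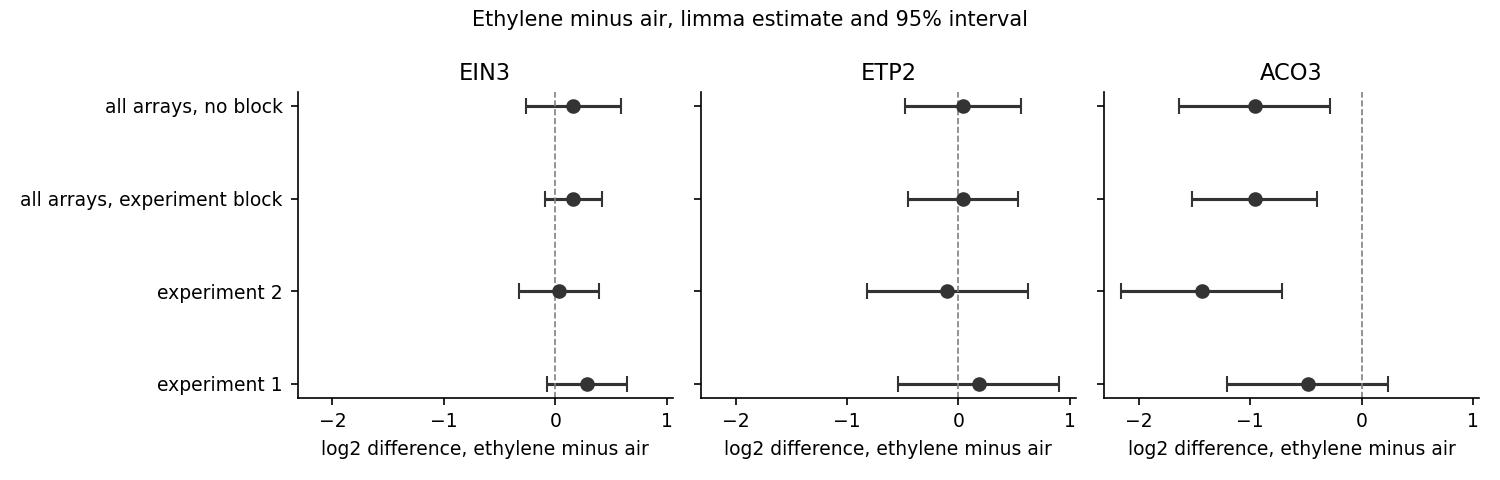
Log2 difference of ethylene minus air (horizontal axis) with unadjusted 95% intervals from limma, for all arrays without and with the experiment as a block and for experiments 2 and 1 in a model with a mean for each experiment and group. The ACO3 intervals exclude 0 except in experiment 1, and all EIN3 and ETP2 intervals include it.

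Within experiments the ACO3 differences were −1.44 in experiment 2 and −0.48 in experiment 1. In experiment 2 the intensities of 531 and 841 in ethylene were below 1681 and 2005 in air, a 0.370-fold level that passed (SE 0.33, limma adjusted p = 0.0226). There 3.88% of probe sets were called lower and 2.38% higher. In experiment 1 the intensities of 798 and 1735 in ethylene and of 1500.4 and 1824 in air overlapped, and the difference did not pass (SE 0.33, adjusted p = 0.515). There 3.65% were called lower and 2.54% higher. The difference between the experiments was itself tested and did not pass, at −0.95 for experiment 2 minus experiment 1 (SE 0.47, 95% interval −1.97 to 0.07, limma adjusted p = 0.860, unadjusted p = 0.0658). For EIN3 this difference was −0.25 and for ETP2 −0.28, with adjusted p of 0.885 and 0.953. By limma 0% of tested probe sets, or 0 of 15922, were called in this comparison. An unadjusted p under 0.05 was found for 917, or 5.76%, little more than that limit alone would give by chance.

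Single arrays moved the ACO3 call, and different ones with and without the block. Without ethylene 1-1 the difference was −1.28 (SE 0.22, limma adjusted p = 0.0135), and ACO3 was called without any block. Leaving out any other array gave differences of −1.03 to −0.72, and no call. When experiments were blocked, the call held without ethylene 1-1 (limma adjusted p = 0.00134), ethylene 2-1 (0.0496), air 1-1 (0.0428) or air 1-2 (0.0229). It was lost without ethylene 1-2 (limma adjusted p = 0.0894), ethylene 2-2 (0.0935), air 2-1 (0.0882) or air 2-2 (0.0775).

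**Figure D4:**
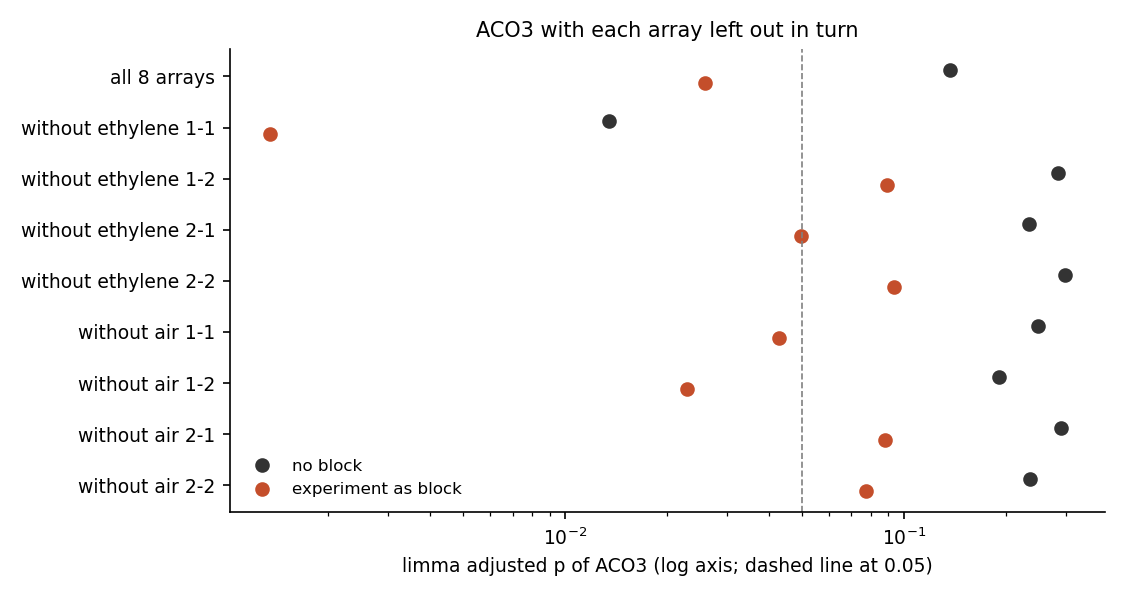
Limma adjusted p of ACO3 (horizontal log axis, dashed line at 0.05) with all 8 arrays and with each array left out in turn, without a block and with the experiment as a block. Without a block the p lies under the line when ethylene 1-1 is left out (0.0135), and with the block it moves across the line when ethylene 1-2, ethylene 2-2, air 2-1 or air 2-2 is left out.

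The response of other genes on ethylene 1-1 was set beside that of ACO3, a measure chosen after the values were seen. For each ethylene array, probe sets were called with that array left out, and the log2 difference of that array from the air mean was expressed as a percentage of the mean difference of the other 3 ethylene arrays. On ethylene 1-1 the median over 495 such probe sets was 98.9% (quartiles 76.0% and 122%). The medians on ethylene 1-2, 2-1 and 2-2 were 96.6%, 85.1% and 88.6%. RTE1, a gene whose product acts on the receptor ETR1, stood at 127% on ethylene 1-1, with an intensity of 16334, its highest of all 8 arrays. ACO3 stood at 0.513% on that array, and at 122%, 111% and 235% on ethylene 1-2, 2-1 and 2-2. The last 3 are divided by means that include ethylene 1-1, and against the remaining 2 arrays they were 81.6%, 74.1% and 157%. With ethylene 1-2, 2-1 or 2-2 left out ACO3 was itself not called. The median probe set called without ethylene 1-1 thus had a difference of similar size on it, and ACO3 had almost none. How many of the 495 probe sets also had almost none was not counted. Whether ACO3 stands apart from them was not tested. The percentages share the air arrays and carry no test.

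**Figure D5:**
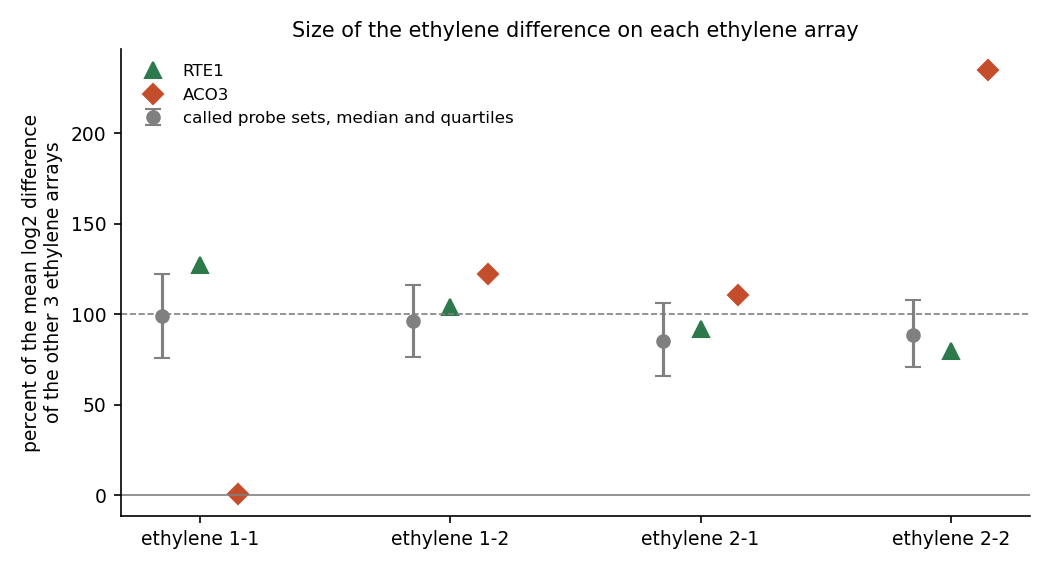
Log2 difference of each ethylene array from the air mean, as a percentage of the mean difference of the other 3 ethylene arrays (vertical axis), for probe sets called without that array (grey, median and quartiles), RTE1 and ACO3. On ethylene 1-1 the grey median is 98.9% and ACO3 is at 0.513%. On the other arrays the ACO3 percentages are divided by means that include ethylene 1-1.

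The other pathway genes with a probe set naming 1 gene gave few values. Lists of ethylene synthesis, control of ACC synthase breakdown, S-adenosylmethionine supply and methionine salvage, perception and signalling, the SCF ubiquitin ligase core and known ethylene-responsive genes hold 71 genes. Probe sets naming 1 gene existed for 9 of them, and 8 passed the filter, EIN3, ETP2 and ACO3 among them. The other genes of the lists are not analysed here. They may still be on the array, since the annotation names no gene for 8794 of its 22810 probe sets. Without a block 1 of the 8, RTE1, rose and none fell, and their median difference was 0.03, against 0.01 over all tested probe sets, of which 1.56% rose and 2.55% fell. Blocking by experiment gave 2 increases, RTE1 and PORB, and 1 decrease, that of ACO3, where 4.33% of all tested probe sets rose and 7.35% fell.

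RTE1 gave 16334, 13031, 11403 and 9952 on the ethylene arrays 1-1 to 2-2 and 3206, 3499, 2858 and 2580.4 on the air arrays, and the groups did not overlap. RTE1 differed by 2.04 on the log2 scale, with an SE of 0.18 and a limma adjusted p of 0.00017. So large a difference does not show whether a small one in EIN3 or ETP2 could be seen on these arrays. PORB, a protochlorophyllide oxidoreductase gene known to be activated by EIN3, had 35268 to 68256 in ethylene and 27524 to 35070 in air, groups that also did not overlap. This was the case for 10.5% of all tested probe sets. Its log2 difference was 0.60 (SE 0.21, limma adjusted p = 0.172), and it was called with the experiment as a block (0.0247), as ACO3 was in the opposite direction.

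RTH, a homologue of RTE1, differed by −0.24 (SE 0.13, limma adjusted p = 0.502), with 4640.4 to 5927 in ethylene and 6281 to 6844 in air. ARD4, entered in the methionine salvage list as an acireductone dioxygenase, differed by 0.03 (SE 0.22, adjusted p = 0.983). It varied by replica and experiment, with 8855, 11027, 9634 and 5959 on the ethylene arrays and 8647, 10555, 9192 and 6182 on the same-numbered air arrays. AT5G10120 and AT5G65100 were entered in the list as relatives of EIN3. AT5G10120 had 206 to 592 in ethylene and 340.2 to 1098 in air, and its log2 values differed by −0.59 (SE 0.40, limma adjusted p = 0.621). AT5G65100 had 89.2 to 286 in ethylene and 145 to 429 in air and was under the filter on dim probe sets, so it was not tested.

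Genes whose log2 values most resembled each member over the 8 arrays were listed from 8675 other tested probe sets that name 1 gene, by Pearson's r and as a description only. These arrays share treatment, experiment and scaling, and the highest of so many values of r are picked for being high. For EIN3 the 3 nearest were AT1G80040 (r = 0.968), AT5G12340 (r = 0.953) and AT4G33150 (r = 0.943). None of them was called, and their log2 differences were 0.19, 0.32 and 0.25. For ETP2 they were AT5G59460 (r = 0.947), AT1G05410 (r = 0.938) and AT2G37480 (r = 0.922), with differences of 0.10, 0.16 and −0.07 that were not called. For ACO3 they were AT4G18530 (r = 0.944), AT1G20030 (r = 0.938) and PUB19 (r = 0.924), a gene for a U-box ubiquitin ligase. AT1G20030 fell by 1.38 (SE 0.33, limma adjusted p = 0.0443), with 169 to 479 in ethylene and 553 to 863 in air. PUB19 differed by −0.75 (SE 0.19, limma adjusted p = 0.0569), with 1151 to 1830.2 in ethylene and 1846 to 2605 in air, and was called with the experiment as a block (0.0101). AT4G18530 differed by −0.36 and was not called (adjusted p = 0.570).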

How the data were processed

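The authors' deposited table gives processed intensities on a linear scale, with 22810 probe sets on each of 8 arrays. After trimming 2% of values at each end, the mean of every array in it was 2500.2. Scanner software, probe summary, detection calls and genome build were not stated in any source used here, and no coordinates are reported. Intensities were transformed to log2(intensity + 16). Control probe sets (64) were left out, as were the dimmest 30% of the rest by mean log2 value. The 4 ethylene arrays were compared with the 4 air arrays in limma 3.58.1 (R 4.3.3) by lmFit and eBayes with an intensity trend, with group as the only term. Another limma model fitted the 4 combinations of experiment and group. P-values were adjusted over all tested probe sets. The fits without a block and with the experiment as a block were tested on simulated data with independent noise between arrays. That simulation held no correlation between replicas and no interaction, so it does not bear on how those affect the calls. Intervals are unadjusted 95% intervals. Python 3.11.15, pandas 2.3.3 and matplotlib 3.10.9 made tables and plots.

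Per the labels the first number of an array marks an experiment shared by both groups. As a check of this pairing, deviations from group means correlated with r = 0.327, 0.394, 0.593 and 0.464 in the same-numbered pairs 1-1, 1-2, 2-1 and 2-2. All ethylene and air arrays of the same experiment gave 0.280 to 0.593, so the check does not set same-numbered pairs apart. Between experiments r was −0.25 or lower. Deviations from a group mean sum to 0, so positive values within experiments force negative ones between them. The replica number of ethylene 2-2 was taken from its title because its description is ambiguous, and the pair values of 2-1 and 2-2 and the fit with 4 pairs depend on it. No label states that replicas were separate cultures, so p-values measure the spread between these samples, which may be technical. Gene names came from the array annotation, in which 503 probe sets name several genes, and 13436 of the 13513 naming 1 gene matched RefSeq's TAIR10.1 gene table. ACO3 is named there by its locus. The named genes were the 3 members, the measured genes of the pathway and marker lists, and the 3 nearest patterns of each member. The members and lists were chosen with earlier results of these data known. Alternatives were other pseudocounts, filters, scalings, variance models and blocks, each experiment alone and each array left out.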

Additional observations from a re-analysis of the deposited data

Results flagged for a closer look

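Among the 23 named genes, each group of 4 arrays was searched for an array whose gap to its nearest neighbour, as a share of the range of the log2 values, passed Dixon's 95% critical value, and 4 of 46 groups had one. Chance gives about 1 group in 20. None of these 4 concerns EIN3, ETP2 or ACO3, and the high ACO3 value on ethylene 1-1 did not meet this limit. RTH was low on ethylene 2-2, with 4640.4 against 5819 to 5927 on the other ethylene arrays. AT1G80040, nearest in pattern to EIN3, was high on air 1-1, with 7680 against 5725 to 5802 on the other air arrays. AT5G59460, nearest to ETP2, was high on air 2-2, with 1428 against 1122 to 1157 on the others. PUB19 was low on air 1-2, with 1846 against 2479 to 2605 on the others.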

How the results depend on the processing

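EIN3 was not called under any of 21 alternatives, with differences of 0.03 to 0.29 (0.04 to 0.29 with 1 array left out), nor was ETP2 under any of 20 (its filter at 50% left it untested). ETP2 was negative in 5 of them, at −0.10 in experiment 2 alone and between −0.055 and 0.17 with 1 array left out, or between −0.094 and 0.18 with the experiment as a replicate block as well. ACO3 was negative under all 21 alternatives. It was not called in 16 and was called in 5. At −0.96 it was called with the experiment or the 4 pairs as a replicate block (limma adjusted p = 0.0258 and 0.0155). Averaged replicas with the experiment as a block gave the same difference and a call (limma adjusted p = 0.000563). That fit leaves each probe set almost no spread of its own, so its p leans on the spread estimated over all probe sets. The other calls of ACO3 were at −1.44 in experiment 2 alone and at −1.28 without ethylene 1-1. With 1 array left out ACO3 ranged from −1.28 to −0.72, and from −1.28 to −0.73 with the block. The called probe sets, 249 higher and 406 lower, numbered 689 and 1170 with the experiment as a block, 643 and 1133 with pairs, 747 and 1255 with averaged replicas, and 119 and 130 with replicas as a random block. They numbered 374 higher and 499 lower in experiment 1 alone, and 387 higher and 641 lower in experiment 2 alone. With 1 array left out, and so fewer samples, there were 164 to 204 higher and 214 to 315 lower. The higher count was 164 without ethylene 1-2, and the lower count was 246 without it, 266 without ethylene 2-2, 243 without air 1-2, 214 without air 2-1 and 238 without air 2-2. The causes of these shifts were not tested. Detection calls were not available, so the signal over background of ETP2 and ACO3 is unknown.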
